A study of Homo sapiens with 18 samples.

Results

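PURPL, GDF15 and SFN are 3 genes known as targets of the transcription factor p53, and they were followed here through 18 arrays of 6 lines of HEK cells, a line of human embryonic kidney origin. They were picked by probe-set gene symbol, 3 of the 14884 genes that carried a symbol. Because they were chosen by their measured signal across the lines and the replicate numbers, their levels and differences are given as a description, with no test. Of the 6 lines, 3 carried an ATXN1L-KO label (A10, A30 and B21). The other 3 were ATXN1L wild type: the CRISPR control lines N4 and N8 and the parental HEK cells. ATXN1L is a partner of the transcriptional repressor CIC. Each line was measured in 3 biological replicates, numbered 1 to 3, on RNA from cells grown in the same serum-supplemented medium. Per the labels, edited cells went through CRISPR treatment and puromycin selection and were then isolated as single colonies, so each edited line stands for 1 colony. No damaging agent or other p53-activating treatment is named for any group.

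p53 is kept low in unstressed cells by the ubiquitin ligase MDM2 and its partner MDM4, and after DNA damage or other stress it binds pairs of half-sites in DNA and raises the transcription of genes for cell-cycle arrest, repair, metabolism and apoptosis. PURPL is a long non-coding RNA induced by p53 that lowers basal p53 levels in colorectal cancer cells, where it associates with the p53-stabilising protein MYBBP1A. GDF15 is a secreted hormone of the TGF-beta superfamily that signals through the hindbrain receptor GFRAL, and it is induced by p53 and also by the integrated stress response, the pathway of ATF4 that answers amino-acid shortage and endoplasmic reticulum stress. SFN encodes 14-3-3 sigma, an epithelial member of the 14-3-3 adaptor proteins that holds CDC25 phosphatases and the cyclin B kinase in the cytoplasm and so contributes to arrest in G2. HEK293 cells carry adenovirus genes whose products include a p53-binding protein, so the p53 pathway of these cells differs from that of untransformed cells.

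The sequences just upstream of the 3 genes are shown because they differ in the binding motif of p53 itself. All 3 genes had a RefSeq window in GRCh38.p14, and all lie on the plus strand. PURPL (gene ID 643401, long non-coding RNA) spans chr5:27472292-27496401. GDF15 (gene ID 9518, protein-coding) spans chr19:18386158-18389176. SFN (gene ID 2810, protein-coding) spans chr1:26863149-26864456. Each line below gives the 250 bases before the annotated start, 5′ to 3′: chr5:27472042-27472291 for PURPL, chr19:18385908-18386157 for GDF15 and chr1:26862899-26863148 for SFN. Capitals mark 2 adjoining p53 half-sites in PURPL and a TATA box in GDF15, and the SFN window holds neither.
PURPL: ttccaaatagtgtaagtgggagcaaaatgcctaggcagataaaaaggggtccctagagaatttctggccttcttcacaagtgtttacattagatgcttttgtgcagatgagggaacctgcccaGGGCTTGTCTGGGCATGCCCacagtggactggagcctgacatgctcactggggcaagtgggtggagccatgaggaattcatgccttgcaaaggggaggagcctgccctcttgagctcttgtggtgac
GDF15: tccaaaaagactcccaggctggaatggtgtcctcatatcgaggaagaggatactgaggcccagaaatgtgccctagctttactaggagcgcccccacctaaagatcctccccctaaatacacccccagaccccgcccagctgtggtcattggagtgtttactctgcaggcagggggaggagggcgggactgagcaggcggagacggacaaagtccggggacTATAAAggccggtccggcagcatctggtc
SFN: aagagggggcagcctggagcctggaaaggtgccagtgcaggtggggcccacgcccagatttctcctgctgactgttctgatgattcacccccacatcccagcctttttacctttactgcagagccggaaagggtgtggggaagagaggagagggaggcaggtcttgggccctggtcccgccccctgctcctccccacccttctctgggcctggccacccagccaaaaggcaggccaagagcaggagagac

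A search of both strands for the 10-base p53 half-site consensus found 2 matches before PURPL, GGGCTTGTCT at 127 to 118 bases and GGGCATGCCC at 117 to 108 bases before the start, directly next to each other. It found 0 matches in the GDF15 and SFN windows. Over all 35116 windows of this length, 5.57% held at least 1 half-site and 9 windows, 0.0256%, held 2 at most 13 bases apart. The TATA box TATAAA lay 29 to 24 bases before the GDF15 start, and 10.7% of windows held it. The GC box GGGCGG occurred 2 times before GDF15 and 1 time before SFN, against 42.6% of windows with at least 1. The PURPL window contained 0 CpG dinucleotides and had a GC content of 52.0%, where the median window contained 11. None of the 3 windows held a CIC octamer (TGAATGAA, TGAATGGA, TCAATGAA or TCAATGGA, 3.18% of windows) or the stress element TGATGNAAN (3.13% of windows). These matches describe the letters of short windows. Sites farther away were not searched.

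The values are log2 signals made by the submitters with Affymetrix Expression Console, 1 per probe set and array. Array medians lay between 5.09 and 5.18, and a gene was tested when at least 3 arrays exceeded 5.6, which kept 9686 genes. Each of the 3 genes has 1 probe set, and all 18 arrays exceeded that value for each of them. ATXN1L RNA was not lower in the KO-labelled lines, with 7.20 to 7.61 in their 9 arrays and 7.05 to 7.29 in the 9 wild-type arrays, where A10 replicate 1 was the lowest KO-labelled array at 7.20. Where its probes lie relative to the edit is not stated in the labels, so its RNA does not check the genotype. One array stood apart before any result: A10 replicate 1 correlated at 0.01 and 0.14 with replicates 2 and 3 of its own line over all tested genes, each taken as a deviation from its mean, but at 0.39 and 0.38 with replicate 1 of N4 and of the parental cells. Differences of A10 from wild type, and values that turn on A10, are therefore also given without that array or marked as including it. Of 12 embryonic kidney markers 9 were tested, with array means of 6.53 to 6.67 in KO-labelled and 6.63 to 6.86 in wild-type arrays. Single markers passed in both directions (limma, described below, adjusted p under 0.05). OSR1 and GATA3 were higher in N8 than in parental cells, by 0.71 and 0.34, where 7.67% of tested genes were higher. Against wild type, OSR1 and SIX2 differed by -0.40 and -0.28 in A30, where 16.3% of tested genes were lower. SALL1 and SIX2 differed by -0.30 and -0.24 in B21, where 7.2% were lower. With A10 replicate 1 included, EYA1 and EMX2 differed by -0.59 and -0.26 in A10, where 4.56% were lower. EYA1 was higher by 0.39 in replicate 1 than in replicates 2 and 3 (limma adjusted p = 0.00198), where 8.56% were higher. Few markers of other cell types could be read: 1 of 8 neuronal (MAP2), 2 of 8 fibroblast (LUM and THY1) and 1 of 8 leukocyte (CD68) markers were tested. MAP2, a neuronal cytoskeletal protein, averaged 5.84 in A30 and 6.85 in wild-type lines, a difference of -1.01 (limma, described below, adjusted p = 0.000185). LUM, a matrix proteoglycan of fibroblasts, was higher in B21 by 0.70 and fell by 0.34 in A30 (limma adjusted p = 0.000275 and 0.0206). CD68, a lysosomal protein of macrophages, was higher in N8 than in parental cells by 0.77 and in B21 than in wild-type lines by 0.30 (limma adjusted p = 0.000406 and 0.0384). THY1 passed in no comparison. The part of these markers in the values of A10, A30, B21 and N8 below was not tested.

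PURPL, the non-coding regulator of p53 levels, varied more than nearly every other gene on the arrays. In A10 its log2 signal was 8.27, 6.12 and 6.34 in replicates 1, 2 and 3. In A30 it was 8.68, 8.12 and 8.28, and in B21 it was 9.22, 8.65 and 8.72. The control lines gave 8.93, 8.38 and 8.47 in N4 and 8.73, 7.77 and 7.80 in N8, and the parental cells gave 9.43, 9.29 and 9.32. Replicates 2 and 3 of A10 were therefore the lowest arrays of all, and the 3 parental arrays were the highest, above every array of every edited line. From low to high, the line means were 6.91 ± 1.18 in A10, 8.10 ± 0.55 in N8, 8.36 ± 0.29 in A30, 8.59 ± 0.30 in N4, 8.86 ± 0.31 in B21 and 9.35 ± 0.07 in parental cells (SD, n = 3 each). Neighbours in this order overlapped in their arrays, except that every B21 array lay below every parental array. The 18 arrays spanned 3.31 on the log2 scale, a 9.92-fold range. The pooled SD within lines was 0.57, where the median tested gene had 0.12 and 99.9% of tested genes had less. The SD of the 6 line means was 0.83, where the median gene again had 0.12 and 99.8% had less.

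GDF15, the secreted stress hormone, kept within a narrower range. The log2 signal was 6.21, 6.18 and 6.25 in A10, 6.95, 6.50 and 6.37 in A30, and 6.31, 6.0 and 5.89 in B21. It was 6.15, 6.04 and 5.94 in N4, 6.62, 5.94 and 6.12 in N8, and 5.90, 6.07 and 6.10 in parental cells. The 2 highest arrays were replicate 1 of A30 and replicate 1 of N8, and all other arrays lay between 5.89 and 6.50. From high to low, the line means were 6.61 ± 0.30 in A30, 6.23 ± 0.35 in N8, 6.21 ± 0.04 in A10, 6.07 ± 0.22 in B21, 6.04 ± 0.11 in N4 and 6.02 ± 0.11 in parental cells (SD, n = 3 each). All neighbours in this order overlapped. The whole range over 18 arrays was 1.06, or 2.08-fold. At 5.89 to 6.95 these signals lie close above the 5.6 used for testing.

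SFN, the 14-3-3 sigma adaptor, grouped the lines differently. Its log2 signal was 6.12, 6.26 and 6.35 in A10, 6.87, 6.82 and 6.71 in A30, and 7.0, 6.75 and 6.43 in B21. It was 6.43, 6.21 and 6.47 in N4, 7.31, 6.82 and 6.71 in N8, and 6.19, 6.50 and 6.29 in parental cells. The arrays of A30 and N8 were all above those of A10, N4 and the parental cells, and B21 bridged the gap. From low to high, the line means were 6.24 ± 0.12 in A10, 6.33 ± 0.16 in parental cells, 6.37 ± 0.14 in N4, 6.73 ± 0.29 in B21, 6.80 ± 0.08 in A30 and 6.95 ± 0.32 in N8 (SD, n = 3 each), and the arrays of neighbours overlapped throughout. The SD of the line means was 0.29, and 94.9% of tested genes had less.

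**Figure D1:**
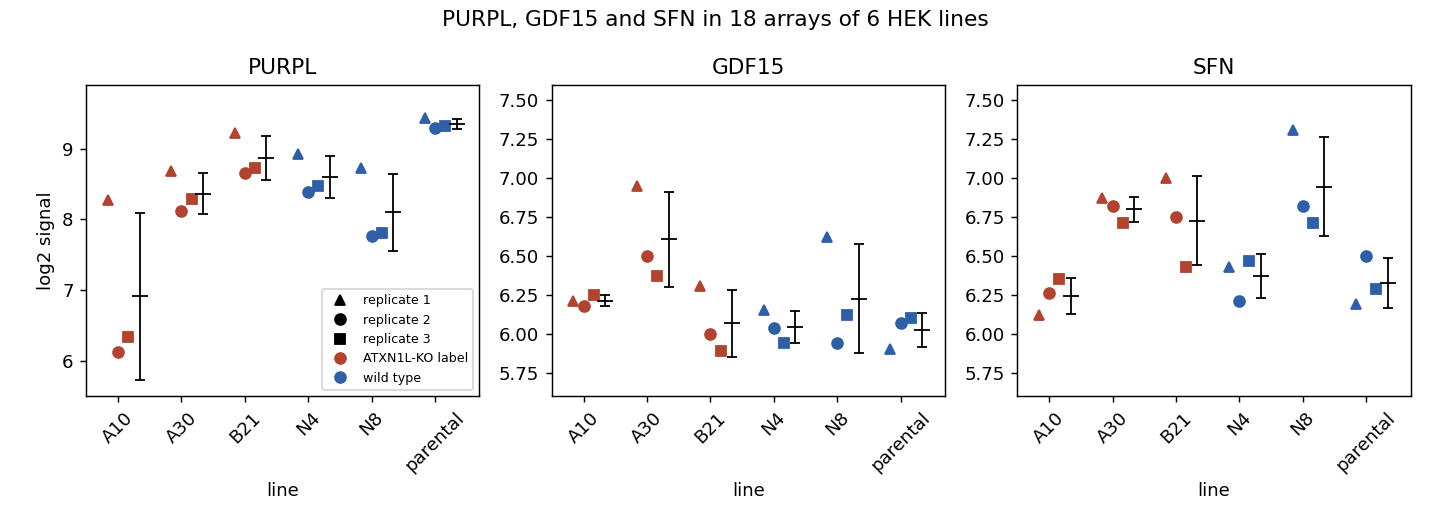
Log2 signal of PURPL, GDF15 and SFN in each of the 18 arrays, by line on the horizontal axis, with triangles, circles and squares for replicates 1, 2 and 3 and the line mean ± SD (n = 3) as a black bar beside them. Replicates 2 and 3 of A10 sit at 6.12 and 6.34 for PURPL, below all other arrays, and replicate 1 is the highest point of every line for PURPL.

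Between the genotype labels, none of the 3 genes separated. The 3 KO-labelled line means averaged 8.04 ± 1.01 for PURPL and the 3 wild-type line means 8.68 ± 0.63 (SD, n = 3 lines each), a difference of -0.64 ± 0.47 (SE). For GDF15 the averages were 6.30 ± 0.28 in KO-labelled and 6.10 ± 0.11 in wild-type lines, a difference of 0.20 ± 0.14. For SFN they were 6.59 ± 0.30 in KO-labelled and 6.55 ± 0.35 in wild-type lines, a difference of 0.042 ± 0.19. The line means of the 2 labels overlapped for all 3 genes, where 14.6% of tested genes had no overlap. Without A10 replicate 1 the PURPL difference was -0.86, that of GDF15 0.198 and that of SFN 0.063. Without the A10 line they were -0.068 for PURPL, 0.24 for GDF15 and 0.216 for SFN, and without the N8 line SFN differed by 0.24.

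Line by line against the mean of the wild-type lines, the 3 genes took different courses. PURPL differed by -1.77 ± 0.32 (SE) in A10 (6.91 against 8.68, 3.41-fold lower), and replicates 2 and 3 of A10 alone averaged 6.23, a 5.46-fold lower signal. In bulk RNA, fewer cells with PURPL and less PURPL per cell cannot be told apart. In A30 PURPL differed by -0.32 ± 0.32 and in B21 by 0.18 ± 0.32, both within their errors. GDF15 differed by 0.51 ± 0.13 in A30 (6.61 against 6.10, 1.42-fold higher), or 0.34 without A30 replicate 1, by 0.12 ± 0.13 in A10 and by -0.031 ± 0.13 in B21. Leaving out A10 replicate 1 left the GDF15 difference in A10 at 0.12. SFN differed by -0.30 ± 0.12 in A10, or -0.24 without replicate 1, by 0.25 ± 0.12 in A30 and by 0.18 ± 0.12 in B21, or 0.042 without B21 replicate 1. The wild-type mean of SFN includes the high N8 line, and against N4 and the parental cells alone the A10 value was -0.105, the A30 value 0.45 and the B21 value 0.38. No KO-labelled line had all 3 arrays of any of these genes above or below all 9 wild-type arrays, a pattern that 4.95% of tested genes showed in A10, 16.3% in A30 and 10.6% in B21.

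The wild-type lines also differed among themselves. Against the parental cells, PURPL differed by -0.75 ± 0.40 (SE) in N4 (8.59 against 9.35, 1.69-fold lower) and by -1.25 ± 0.40 in N8 (8.10 against 9.35, 2.37-fold lower). All 3 arrays of N4 and of N8 lay below all 3 parental arrays for PURPL, as they did for 12.3% of tested genes in N4 and 16.7% in N8. SFN differed by 0.62 ± 0.15 in N8 (6.95 against 6.33, 1.54-fold higher), with all 3 N8 arrays above the parental arrays, as for 16.6% of tested genes, and by 0.043 ± 0.15 in N4. With replicates 2 and 3 alone the SFN difference in N8 was 0.37. In N4 none of the 3 genes lay wholly above the parental arrays, where 8.63% of tested genes did. GDF15 differed by 0.20 ± 0.16 in N8 and 0.02 ± 0.16 in N4, and its N8 value came to -0.055 when replicates 2 and 3 alone were used. The range of the line means was 1.95 for PURPL among KO-labelled lines and 1.25 among wild-type lines. It was 0.54 among KO-labelled and 0.20 among wild-type lines for GDF15, and 0.56 among KO-labelled and 0.62 among wild-type lines for SFN. Without A10 replicate 1 the range among KO-labelled lines was 2.63 for PURPL, 0.54 for GDF15 and 0.495 for SFN. The median shift per line of a window of 41 neighbouring genes ran from -0.18 to 0.13 around PURPL, from -0.098 to 0.094 around GDF15 and from -0.024 to 0.046 around SFN, smaller than the PURPL differences of A10 and N8.

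Replicate 1 was set apart from replicates 2 and 3 in PURPL. Its value exceeded both others in 6 of 6 lines, as for 3.27% of tested genes. The difference from the mean of replicates 2 and 3 was 2.04 in A10, 0.48 in A30, 0.535 in B21, 0.505 in N4, 0.945 in N8 and 0.125 in parental cells. Over all lines it was 0.77 ± 0.16 (SE; 8.88 in the 6 replicate 1 arrays against 8.11 in the other 12), a 1.71-fold higher signal, and 0.52 without A10 replicate 1. The replicate numbers stand for cultures whose handling the labels do not describe, and what sets replicate 1 apart was not tested. GDF15 was above both others in 4 of 6 lines. Its difference was largest in N8 at 0.59 and A30 at 0.515 and was -0.005 in A10 and -0.185 in parental cells, with a mean of 0.24 ± 0.08. SFN was above both others in 3 of 6 lines, by 0.545 in N8, 0.41 in B21 and 0.105 in A30, and the difference was -0.185 in A10 and -0.205 in parental cells. A10 thus held the largest replicate difference for PURPL but none above 0 for GDF15 and SFN, and the parental cells had the smallest for PURPL.

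**Figure D2:**
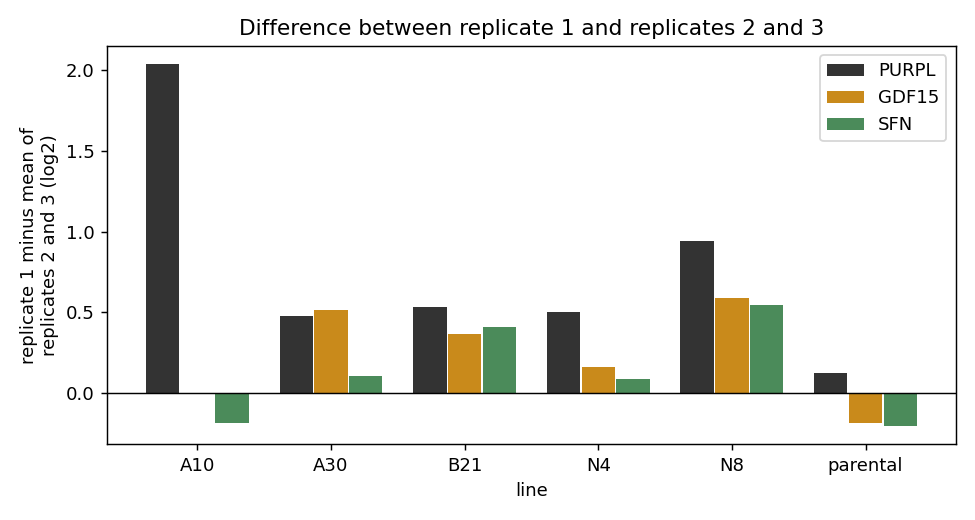
Difference in log2 signal between replicate 1 and the mean of replicates 2 and 3 for each line, with 1 bar each for PURPL, GDF15 and SFN. The PURPL bar lies above 0 in all 6 lines and reaches 2.04 in A10, while GDF15 and SFN lie below 0 in A10 and in parental cells.

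Other p53 target genes were read from a list of 37, of which 21 had a named probe set and 19 were tested. CDKN1A, MDM2, GADD45A, BTG2 and FAS, long-known targets, have no named probe set here. With limma, a linear model with variances shared across genes, and Benjamini-Hochberg adjustment over all 9686 genes, 0 of the 19 passed between the genotype labels, as did 0% of all tested genes. At an unadjusted p under 0.05 there were 3 of the 19 and 937 of all tested genes. The median difference of the 19 was -0.027, against -0.0022 over all tested genes.

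Between the replicate numbers, 9 of the 19 other targets were higher in replicate 1 and 0 were lower, where 8.56% of all tested genes were higher and 10% lower. Their median difference was 0.13, against -0.011 over all tested genes. SPATA18, which takes part in the control of mitochondrial quality, was higher by 0.47 ± 0.08 (SE; 7.59 in replicate 1 against 7.12, limma adjusted p = 0.00102). TP53INP1, a nuclear cofactor of p53, was higher by 0.49 ± 0.10 (7.99 against 7.49, limma adjusted p = 0.00411). RPS27L, a ribosomal protein paralogue, was higher by 0.24 ± 0.05 (limma adjusted p = 0.00418) and the helicase gene ASCC3 by 0.20 ± 0.04 (limma adjusted p = 0.00472). The other 5 were TP53I3, SESN1, EDA2R, BAX and TRIAP1, with differences of 0.20 to 0.26. They encode a quinone oxidoreductase, a sestrin that restrains mTORC1, a receptor of the TNF family, a pro-apoptotic pore former and an inhibitor of apoptosis. The remaining 10 did not pass, and 3 of them lay below 0: PLK2, PLK3 and TIGAR had differences of -0.062, -0.025 and -0.014.

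Line by line, RPS27L, SPATA18 and ASCC3 had replicate 1 above both others in 6 of 6 lines, and 10 of the 19 genes did so in at least 5 lines, where 10.7% of all tested genes did. The median replicate 1 difference of the 19 was 0.25 in A10, 0.155 in A30, 0.11 in B21, 0.21 in N4, 0.25 in N8 and 0.03 in parental cells. PURPL and the list thus shared their smallest difference in the parental cells. Without the A10 line 7 of the 19 were higher, where 6.34% of all tested genes were, and 7 were also called without A10 replicate 1 alone. The array means of the list ran from 7.72 to 8.02 in KO-labelled and from 7.75 to 8.06 in wild-type arrays.

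The KO-labelled lines each changed a few of the same 19 genes, and in both directions. In A10, PMAIP1, a BH3-only inducer of apoptosis, was higher by 0.38 ± 0.08 and TP53I3 by 0.57 ± 0.13 (limma adjusted p = 0.00895 and 0.0137), while BAX fell by 0.37 ± 0.09, at 8.30 against 8.68 (limma adjusted p = 0.013). Without A10 replicate 1 the differences were 0.44 for PMAIP1, 0.49 for TP53I3, which then missed the threshold, and -0.51 for BAX (limma adjusted p = 0.00786, 0.0526 and 0.000658). With all arrays these are 2 higher, where 3.84% of all tested genes were, and 1 lower, where 4.56% were. In A30, 4 were higher (12.9% of tested genes) and 3 lower (16.3%). PLK2, a kinase of centriole duplication, was higher in A30 by 0.73 ± 0.07 (7.38 against 6.65, limma adjusted p = 1.62e-06), PMAIP1 by 0.43, TP53I11 by 0.26 and TIGAR, a regulator of glycolysis, by 0.19. SPATA18 differed there by -0.52, ASCC3 by -0.35 and BBC3, the BH3-only protein PUMA, by -0.30. In B21, PLK2 was higher by 0.93 ± 0.07 (7.58 against 6.65, limma adjusted p = 2.48e-07), and it was the 1 gene higher, where 8.82% of tested genes were. BBC3 and the cyclin gene CCNG1 differed by -0.26 and -0.24 in B21, 2 genes lower where 7.2% of tested genes were. The 3 comparisons share the same 9 wild-type arrays. The A10 count was 0 without A10 replicate 2, 1 without A10 replicate 3 and 4 without A10 replicate 1, the A30 count was 4 without A30 replicate 2, and the B21 count was 1 without any single B21 array.

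Among the controls, N4 had 0 of 19 called against parental cells, where 0.206% of tested genes were higher and 0.341% lower, and 2 of the 19 had an unadjusted p under 0.05. N8 had TP53I11 higher by 0.50 ± 0.09 (7.17 against 6.67, limma adjusted p = 0.00203), 1 gene where 7.67% of tested genes were higher, and 0 lower where 7.03% were. With the replicate number as a block 6 of the 19 passed in N8. TP53I11, BAX, TP53I3, RRM2B and RPS27L were then higher, by 0.22 to 0.50, where 11.4% of tested genes were, and TRIAP1 differed by -0.20, where 10.8% were lower. These were named after their values were seen. Limma F tests gave 6 of the 19 as different among the KO-labelled lines, where 25.8% of tested genes were, and 1 among the wild-type lines, where 16.1% were. Without B21 replicate 2 the first count was 3, and without A10 replicate 1 it was 5. The second was 2 without replicate 1 of N4, N8 or A10 or replicate 3 of N8, and 0 without the N8 line, and the N8 count was 2 without N8 replicate 1 or 3.

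The same list was also tested in replicates 2 and 3 alone, in all 5 line comparisons. In A10, 4 of 19 were lower, with differences of -0.48 for TP53INP1, -0.46 for BAX, -0.36 for BBC3 and -0.295 for SPATA18, where 8.78% of tested genes were lower. PMAIP1 and TP53I3 were higher there by 0.52 and 0.56, where 6.31% of tested genes were higher. In N8 against parental cells 6 of 19 were lower, with differences of -0.35 for SPATA18, -0.345 for SESN1, -0.32 for EDA2R, -0.275 for TRIAP1, -0.27 for PMAIP1 and -0.24 for CCNG1, where 7.21% of tested genes were lower. TP53I11 was higher there by 0.545, where 8.52% of tested genes were higher. In A30 4 were lower and 3 higher, where 15.7% of tested genes were lower and 12.8% higher. In B21 2 were lower and 1 higher, where 7% of tested genes were lower and 10.3% higher. In N4 0 were lower and 0 higher, where 0.258% of tested genes were lower and 0.32% higher. A10 and A30 thus had the same number of lower genes. The 5 comparisons share the parental arrays.

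**Figure D3:**
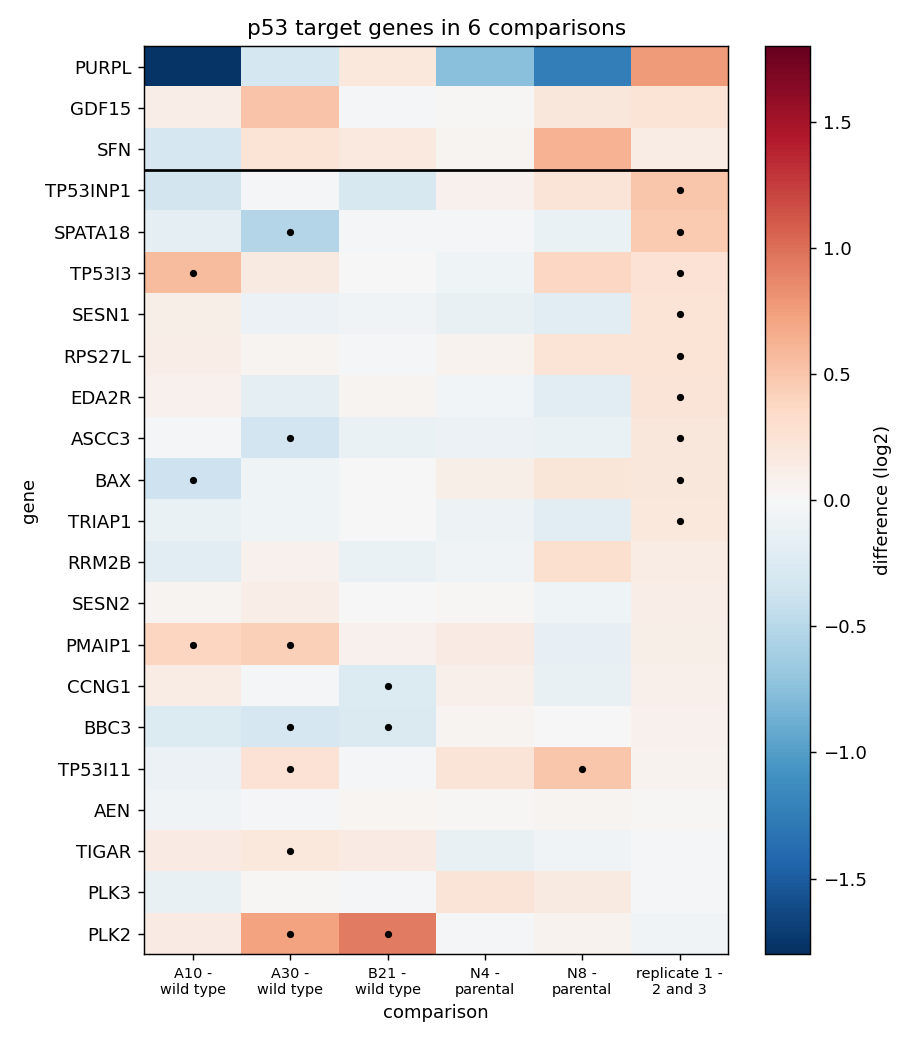
Differences in log2 signal (red higher, blue lower) of PURPL, GDF15, SFN and 19 other p53 target genes, in rows, for 5 line comparisons and for replicate 1 against replicates 2 and 3, in columns, with dots on genes that passed at a limma adjusted p under 0.05 (the 3 genes above the black line were not tested). The replicate 1 column has 9 dots, all on higher genes. The PURPL row holds the strongest blue, -1.77 in A10, and reaches 0.77 in replicate 1, while the strongest red is PLK2 in B21 at 0.93.

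Upstream of these targets, 14 of 23 listed regulators of p53 were tested, of which 2 were higher and 3 lower in replicate 1, where 8.56% of all tested genes were higher and 10% lower. MDM4, which restrains p53, was higher in replicate 1 by 0.29 ± 0.04 (9.08 against 8.79, limma adjusted p = 0.000406). MYBBP1A, the partner of PURPL, fell by 0.31 ± 0.07 in replicate 1 (limma adjusted p = 0.00645) and did not pass in any line comparison, where it differed by -0.13 to 0.16. In A30 the coactivator EP300 was higher by 0.32 and the checkpoint kinase CHEK2 by 0.41, 2 of 3 regulators that were higher there, where 12.9% of tested genes were, beside 2 that were lower, where 16.3% were. In B21 4 regulators were higher, EP300 by 0.28 and CHEK2 by 0.25 among them, where 8.82% of tested genes were. Another 3 were lower there, TP73 at -0.52 among them, where 7.2% of tested genes were. In N8 against parental cells only CDKN2A passed, at -0.61 (limma adjusted p = 0.00238), where 7.03% of tested genes were lower. CHEK2 also passed as higher in A10 by 0.25, with A10 replicate 1 included, where 3.84% of tested genes were higher. Of 10 other p53-linked long non-coding RNAs 2 were tested, and LINC-PINT passed in no comparison. NORAD differed by -0.36 ± 0.08 in A30 (10.93 against 11.28, limma adjusted p = 0.00238) and by -0.35 ± 0.08 in B21 (limma adjusted p = 0.00596).

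The partners of 14-3-3 sigma were read next. None of the 6 other 14-3-3 genes has a named probe set. Of 12 tested partners of 14-3-3 sigma, 3 were higher and 0 lower in N8, where 7.67% of tested genes were higher and 7.03% lower: the phosphatase CDC25B by 0.56 ± 0.08 (9.0 against 8.44, limma adjusted p = 0.000378), the ubiquitin ligase TRIM25, which marks 14-3-3 sigma for degradation, by 0.37 ± 0.06 (limma adjusted p = 0.000875), and BAD, which was chosen after its value was seen, by 0.40. CDC25B was also higher in A10, the line with the lowest SFN, by 0.23 (0.31 without A10 replicate 1), and in B21 by 0.22 (limma adjusted p = 0.0437, 0.00874 without that array, and 0.0318). TSC2 passed as lower in A10 at -0.32, with A10 replicate 1 included, and CDK4 passed as lower in B21 at -0.18. In A10 3.84% of tested genes were higher and 4.56% lower, and in B21 8.82% were higher and 7.2% lower. In A30 the kinase WEE1, a brake on entry into mitosis, was higher by 0.57 ± 0.05 (limma adjusted p = 9.09e-07), with 2 partners higher and 2 lower in all, where 12.9% of tested genes were higher and 16.3% lower. WEE1 was also higher in B21, by 0.46 ± 0.05 (limma adjusted p = 1.7e-05). Of 14 tested G2 and mitosis genes, 6 were lower and 0 higher in replicate 1, where 10% of all tested genes were lower. The cyclin gene CCNA2 fell by 0.27 ± 0.04 there (10.06 against 10.32, limma adjusted p = 0.000506) and the survivin gene BIRC5 fell by 0.20 ± 0.04 (limma adjusted p = 0.00245). In N8 3 of the 14 were higher, CCNB2 by 0.53 ± 0.07, where 7.67% of tested genes were higher.

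SFN is also an epithelial gene, and 7 of 20 other epithelial markers were tested. Their mean signal was 7.53 in A10 (7.62 without replicate 1), 7.93 in A30, 8.11 in B21, 7.45 in N4, 7.63 in N8 and 7.57 in parental cells. It was highest in B21 and A30, while SFN was highest in N8. In B21 4 were higher and 0 lower, with KRT19 at 1.24 ± 0.10, CLDN1 at 1.12 ± 0.14 and DSP at 0.35 ± 0.05, where 8.82% of all tested genes were higher. In A30 KRT19, DSP and JUP passed as higher, by 1.18, 0.34 and 0.25, where 12.9% of tested genes were higher. In N8 against parental cells JUP was higher by 0.33, where 7.67% of tested genes were higher. KRT19 went the other way in N8, at -0.44, where 7.03% were lower. In N4 against parental cells DSP passed as lower, at -0.33 (limma adjusted p = 0.0147), where 0.341% of tested genes were lower. The part of these markers in the SFN values was not tested.

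The receptor and processing pathway of GDF15 was read from 7 genes. GFRAL did not reach the level for testing. Of the 6 tested genes of this group, PCSK6, a proprotein convertase, fell by 0.32 ± 0.05 in A30 (6.40 against 6.71, limma adjusted p = 0.000103) and PCSK5, a related convertase, was higher by 0.22, where 16.3% of tested genes were lower and 12.9% higher. PCSK5 was higher by 0.39 ± 0.07 in B21 (limma adjusted p = 0.000774), the 1 gene of the 6 that passed there, where 8.82% of tested genes were higher. In replicate 1 the convertase gene FURIN differed by -0.13, where 10% of tested genes were lower, and the membrane protease MMP14 was higher by 0.22 ± 0.07 in replicate 1 (limma adjusted p = 0.0339), where 8.56% were higher. Of 10 other ligands of the TGF-beta superfamily, 5 were higher and 0 lower in B21, where 8.82% of tested genes were higher and 7.2% lower, led by BMP2 at 1.26 ± 0.17, BMP5 at 1.15 ± 0.15 and BMP6 at 0.75 ± 0.11. GDF15 itself differed by -0.031 in that line and by 0.51 in A30. BMP2, BMP5, GDF1 and BMP6 also passed as higher in A30, by 1.09, 0.60, 0.52 and 0.37. GDF11 passed as lower there at -0.47, where 12.9% of tested genes were higher and 16.3% lower. GDF11 also passed as lower in A10 at -0.26, with A10 replicate 1 included, where 4.56% of tested genes were lower. In N8 against parental cells BMP2 and GDF7 passed as higher, by 0.75 and 0.51, where 7.67% of tested genes were higher. The BMP2 line means spanned 1.29 among the wild-type lines (limma F test, adjusted p = 0.00128). Among 11 tested genes of the integrated stress response, 4 were higher and 1 lower in A30, the line with the highest GDF15, where 12.9% of tested genes were higher and 16.3% lower. In B21 5 were higher and 1 lower, where 8.82% of tested genes were higher and 7.2% lower. N8 had the next highest GDF15 mean, 6.23. There, against parental cells, TRIB3 passed as higher by 0.30, where 7.67% of tested genes were higher. PSAT1, ASNS and PHGDH passed as lower in N8, at -0.59, -0.44 and -0.28, where 7.03% were lower. VLDLR, a lipoprotein receptor, was higher by 1.12 ± 0.08 in B21 (limma adjusted p = 2.11e-07), and DDIT4, an inhibitor of mTORC1, fell by 0.69 ± 0.09 in A10 (7.22 against 7.91, limma adjusted p = 0.000205) and by 0.825 there without A10 replicate 1. VLDLR also passed as higher in A30 by 0.85. With A10 replicate 1 included, XBP1 and VLDLR passed as higher in A10, by 0.63 and 0.32, where 3.84% of tested genes were higher. DDIT4 also passed as lower in A30 at -0.48 and in B21 at -0.37. In replicate 1, 0 of the 11 were higher and 4 lower, where 8.56% of tested genes were higher and 10% lower, with the serine synthesis gene PSAT1 changed by -0.32 ± 0.04 (limma adjusted p = 0.00031).

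Genes with the most similar pattern were taken as the 5 with the highest Pearson r over the 18 arrays, which share lines and replicate numbers, so r is a description. For PURPL they were CRABP2 (a retinoic acid binding protein), WDR19 (a protein of cilia), TXNRD3 (a thioredoxin reductase), RAPGEF5 and NIPSNAP2, with r of 0.918, 0.913, 0.892, 0.889 and 0.874. Without replicates 2 and 3 of A10, the 2 arrays farthest from the median of PURPL, the same 5 values were 0.806, 0.712, 0.719, 0.685 and 0.567, so part of the likeness rests on those arrays. CRABP2 averaged 6.61 in A10 (6.345 without replicate 1), 7.11 in A30, 7.19 in B21, 7.48 in N4, 7.17 in N8 and 7.74 in parental cells. For GDF15 the 5 genes were MOB3A, NES (the intermediate filament nestin), TSPYL2, CIB3 and DLX4 (a homeobox factor), with r of 0.869, 0.858, 0.801, 0.801 and 0.789. For SFN they were SPATA20, CRAT (carnitine acetyltransferase), JUP (the junction protein plakoglobin), E2F2 (a cell-cycle transcription factor) and KDM5A (a histone demethylase), with r of 0.888, 0.867, 0.862, 0.837 and 0.832. None of the 15 is on the p53 target list.

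**Figure D4:**
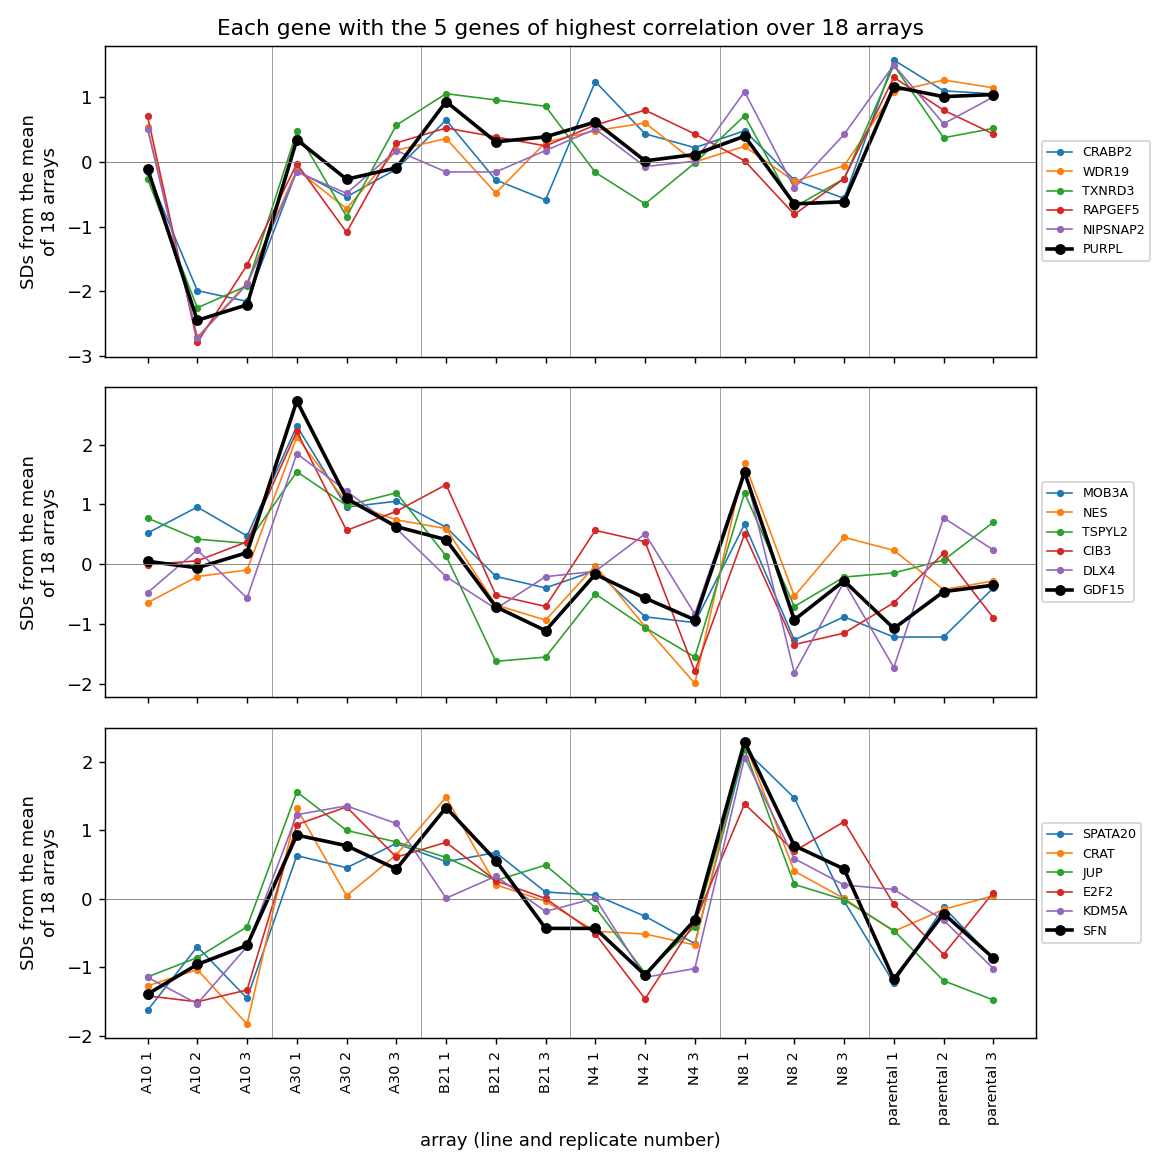
Signals of PURPL, GDF15 and SFN (black, 1 panel each) and of the 5 most similar genes of each (colours), in SDs from the mean of the 18 arrays on the vertical axis, with arrays by line and replicate number on the horizontal axis. The PURPL panel drops at replicates 2 and 3 of A10, the GDF15 panel peaks at replicate 1 of A30, and the SFN panel peaks at replicate 1 of N8.

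PURPL showed little common pattern with GDF15 or SFN across all arrays, and more with GDF15 within lines. Over the 18 arrays PURPL and GDF15 had r = -0.052 (Spearman's rho = -0.18), PURPL and SFN r = 0.16 (rho = 0.033), and GDF15 and SFN r = 0.56 (rho = 0.44). The last value came to 0.33 without the 2 arrays farthest from the median of GDF15, and to 0.72 for deviations from the line means. For such deviations PURPL and GDF15 had r = 0.46, and PURPL and SFN r = 0.20. With the 19 other p53 targets, the median r was 0.27 for PURPL, 0.26 for GDF15 and 0.057 for SFN, where the medians over all tested genes were 0.0035, -0.019 and 0.0067. These correlations come from the same arrays, so the replicate 1 difference enters each of them.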

How the data were processed

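Total RNA of 18 arrays (6 lines, 3 replicates each) was measured on Affymetrix arrays. The deposited values are log2 signals, 1 per probe set and array, which per the submitters' processing notes the authors made with Affymetrix Expression Console. Release and settings were not given in the sources used here. That the unit is log2 was inferred from the deposited values, between 0.57 and 14.84. They were used as deposited, with a pseudocount of 0 and no further normalisation. Of 53617 probe sets 16098 had 1 symbol and 0 several, and for 779 genes the probe set with the highest mean was used. Genes needed at least 3 arrays above 5.6, the 40th percentile of values of named probe sets.

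Genotype was compared on line means, 3 lines against 3, and lines and replicate numbers on arrays, with limma 3.58.1 in R 4.3.3 and Benjamini-Hochberg adjustment at 0.05 over 9686 genes. P-values on arrays measure the spread between replicate cultures and leave out that between clones. The 3 genes (the members) and the gene lists were chosen with earlier results of these data known. Besides PURPL, GDF15 and SFN, the text names MDM2 and MYBBP1A. From the p53 target list it names up to 4 genes per direction and comparison with the smallest p. From every other list it names up to 3 genes with the smallest p, and for each member the 5 genes of highest r. Other genes of these lists are named beyond this rule, after their values were seen. The models were tested on simulated data. The main models have no replicate block. Alternatives were the filter, quantile normalisation, the mean of probe sets, neighbour centring, a replicate block, a random line block, replicates 2 and 3 only, and leaving out arrays or lines. The number of arrays limits the precision. Promoter windows are RefSeq's, GRCh38.p14.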

Additional observations from a re-analysis of the deposited data

Results flagged for a closer look

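One GDF15 array stood far from the others of its genotype. Among the 9 wild-type arrays, replicate 1 of N8 read 6.62, and its gap to the nearest array was 0.65 of the whole range.

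SFN moved in opposite directions in lines of the same genotype label: it differed from wild type by -0.30 in A10 and by 0.25 in A30, and the difference between the lines was not tested. The wild-type mean holds the high N8 line, and without that line the values were -0.105 in A10 and 0.45 in A30.

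Among the other p53 target genes, 6 differed between the 3 KO-labelled lines by limma F tests. The range of the line means was 0.35 for PMAIP1 (9.80 in A10, 9.85 in A30 and 9.50 in B21, adjusted p = 0.0302), 0.39 for BAX (8.30, 8.61 and 8.69 in the same lines, adjusted p = 0.0263) and 0.58 for TP53I3 (6.59, 6.19 and 6.01, adjusted p = 0.0351). It was 0.78 for PLK2 (6.80, 7.38 and 7.58, adjusted p = 2.44e-05), 0.37 for CCNG1 (9.28, 9.13 and 8.91, adjusted p = 0.0132) and 0.36 for TP53I11 (6.81, 7.17 and 6.89, adjusted p = 0.0165). Without A10 replicate 1 the range was 0.50 for TP53I3, which no longer passed (adjusted p = 0.126), while the other 5 did. What underlies these differences was not tested.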

How the results depend on the processing

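Of 539 recomputed values of PURPL, GDF15 and SFN, 536 moved by less than 1 SD between replicates; the exceptions were PURPL in A10, at -2.45 without A10 replicate 1 and between -2.45 and -1.375 with any 1 array left out, and, with replicates 2 and 3 only, GDF15 in N8 at -0.055 and SFN in N8 at 0.37. Of 234 recounts of the 19 p53 targets, 205 stayed within 1.5 times. The genotype count, 0, became 1 with arrays and the line as a random block and 1 without the A10 line. With replicates 2 and 3 only, counts were 6 in A10, 7 in N8, 11 among KO-labelled lines and 2 among wild-type lines. Neighbour centring gave 3 in A30, 1 in B21 and 3 among KO-labelled lines. With no filter B21 had 1. Quantile normalisation gave 2 in N8 and 2 among wild-type lines, and the 60th percentile filter 2 among wild-type lines, where GDF15 gave no value. Without the N8 line 0 remained among wild-type lines. Same-numbered arrays tended to deviate together (median r 0.20, over 0.1 in 39 of 45 pairs, and 15 of 18 arrays lay nearest to their own number). Pairing required r over 0.1 in every pair, so the block stayed an alternative. A replicate block gave 6 in N8 and 3 among wild-type lines. Leaving out 1 array gave 0 to 4 in A10 (0 without A10 replicate 2 and 1 without A10 replicate 3), 4 to 7 in A30 (4 without A30 replicate 2), 1 to 3 in B21 (1 without any B21 array), 1 to 2 in N8 (2 without N8 replicate 1 or 3), 3 to 6 among KO-labelled lines (3 without B21 replicate 2), 1 to 2 among wild-type lines (2 without replicate 1 of N4, N8 or A10 or replicate 3 of N8) and 7 to 9 for replicate 1. Over all genes, 0 genotype calls became 43 with the block, 75 with the random block, 6 with replicates 2 and 3, 5 without N8 and 72 without A10; A10's 814 became 510 with no filter, 310 with neighbour centring, 1379 with the block and 1461 with replicates 2 and 3; neighbour centring gave 1855 for A30's 2836, 927 for B21's 1551, 17 for N4's 53, 484 for N8's 1424, 1209 for the 2503 among KO-labelled lines and 506 for the 1561 among wild-type lines. The block gave 168 for N4, 2149 for N8 and 2427 among wild-type lines, N4 had 26 with no filter, and without N8 the 1561 among wild-type lines became 44 and the 1800 for replicate 1 became 935. Leaving out 1 array gave 0 to 5 genotype calls, 9 to 116 in N4, as few as 327 in A10, 824 in B21 and 876 in N8, and 1112 for replicate 1 without N8 replicate 1. Why these counts moved was not tested. Signals of GDF15 and SFN near the level for testing limit how small a change could be seen.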

Other observations

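Of 27305 genes with an upstream window, 9, or 0.033%, had 2 p53 half-sites at most 13 bases apart, and 3 of these were measured and tested on the arrays. Beside PURPL they were PTCHD4 and MCC, found by the motif search and not by their values. PTCHD4, a patched-domain protein, had a log2 difference of 0.37 between replicate 1 and replicates 2 and 3, where PURPL had 0.77 and MCC 0.089. Between KO-labelled and wild-type lines PTCHD4 differed by -0.61, PURPL by -0.64 and MCC by -0.011. The differences of PTCHD4 from wild type were -0.65 for A10 (-0.86 without A10 replicate 1), -0.48 for A30 and -0.71 for B21, where those of PURPL were -1.77, -0.32 and 0.18. Among the controls, PTCHD4 differed from parental cells by -0.52 in N4 and 0.35 in N8, and PURPL by -0.75 and -1.25. Of the 37 listed p53 targets, 28 had a window, 6 of these held a half-site (AEN, FAS, FDXR, PLK2, RPS27L and SESN1) and 0 held 2. Over all genes with a window, 6.8% held a half-site. These values are a description with no test.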
